A study of Mus musculus with 4 samples.

Results

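The genes described here are 10 regulators of cell survival, namely the 4 copies of Bcl2a1, Bcl2, Bcl2l1, Mcl1 and Bcl2l11 of the BCL2 family, and Birc2 and Birc3 of the inhibitor of apoptosis (IAP) family. They were chosen by gene symbol, and 9 of the 10 were among the 10941 genes of the deposited count table. The row for Bcl2a1a was not among them, so that copy was not analysed here. The libraries were made from group 2 innate lymphoid cells (ILC2), tissue lymphocytes that secrete type 2 cytokines, sorted from mouse adipose tissue. All mice carried R5, a Cre recombinase with a red fluorescent reporter at the Il5 locus, in heterozygous form (R5/+), so deletion is restricted to cells that have expressed Il5. The study compared R5/+ Rptor f/f with R5/+ Rptor +/+ mice, where Rptor encodes Raptor, a scaffold protein without which mTORC1, a nutrient-sensing kinase complex, does not form. Library names and sample titles give opposite genotypes for all 4 samples, the library called WT being titled Rptor f/f and the library called KO being titled Rptor +/+. The groups are therefore called WT-named and KO-named, and every difference is KO-named minus WT-named. Each group had 2 libraries, called 1 and 3 after the columns of the table, and the labels give no age, sex, strain or pooling of animals.

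BCL2 family proteins decide whether the outer membrane of mitochondria is kept intact. The pro-survival members BCL2, BCL-XL (Bcl2l1), MCL1 and A1 (Bcl2a1) hold the pore formers BAX and BAK in check, and BH3-only proteins such as BIM (Bcl2l11) bind and neutralise the pro-survival members. Lymphocytes depend on cytokine signals, among them interleukin-7, to keep this balance. The IAP proteins cIAP1 (Birc2) and cIAP2 (Birc3) are ubiquitin ligases of the tumour necrosis factor receptor complexes and restrain the alternative NF-kappaB pathway. In the mouse the A1 gene is present in near-identical copies on chromosome 9. Of these Bcl2a1c lies apart from the others and has a shorter reading frame. Bfl-1 is the human counterpart of A1.

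Total counts were between 15258780 and 18856218 per library, and a count of 0 allowed a level of up to 0.159 to 0.197 CPM of the total count, the level of 3 counts. All other CPM values are scaled to the library size after TMM adjustment. The targeted gene Rptor was at 14.5 and 76.8 CPM in WT-named libraries 1 and 3 and at 0.971 and 33.9 CPM in KO-named libraries 1 and 3, so the groups overlapped and it does not settle which label is right. All 10 ILC2 markers examined were listed, with a summed level of 14021.0 to 16829.5 CPM in the WT-named libraries against 13179.6 to 16640.6 CPM in the KO-named libraries. Within that list Il5, whose locus carries the Cre, was at 542.2 and 321.0 CPM in WT-named libraries 1 and 3 and at 86.6 and 177.1 CPM in KO-named libraries 1 and 3, lower together with the Bcl2a1 copies. Thy1 went the other way, at 9.19 and 30.3 CPM against 139.8 and 44.8 CPM. Areg was also higher in the KO-named libraries, at 1480.7 and 1328.5 against 1701.6 and 1803.9 CPM. Il2ra was lower there, at 997.1 and 1008.5 against 849.6 and 907.5 CPM, and the other ILC2 markers overlapped. Of 10 mast cell markers 9 were listed, with summed levels of 6899 to 8207 CPM and 8316 to 10701.5 CPM, and Cpa3 and Cma1 were abundant in every library. These markers differed in direction. Cma1 (1836.0 and 1319.5 against 3216.1 and 1996.8 CPM) and Kit (712.5 and 1097.6 against 1486.7 and 1560.5 CPM) were higher in the KO-named libraries. Lower there were Ms4a2 (68.2 and 54.6 against 25.3 and 7.98 CPM) and Fcer1a (228.5 and 270.2 against 171.7 and 204.0 CPM). Mrgprb1 was also lower, at 427.1 and 484.5 against 273.7 and 391.2 CPM, and the other listed ones overlapped. Stromal transcripts were concentrated in KO-named library 1, where the 2 listed of 7 markers summed to 824.1 CPM against at most 7.58 CPM elsewhere. Macrophage markers, 2 of 6 listed, reached 29.3 and 32.7 CPM in the KO-named and 2.02 and 13.0 CPM in the WT-named libraries. Of T cell markers 2 of 6 were listed, and their sum of 101.1 to 241.7 CPM overlapped between the groups. Among them Cd3e was at 6.02 and 11.9 CPM in WT-named libraries 1 and 3, with no read in either KO-named library. Endothelial markers, 3 of 4 listed, summed to at most 2.07 CPM, with Pecam1 at 2.02 and 1.02 CPM against 0.149 and 0.176 CPM. In bulk samples fewer cells of a type and less RNA per cell cannot be told apart. The part of other cell types in the results below was not tested.

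The sequences of the Bcl2a1 copies are shown because they set how far reads can be assigned to one copy. All 4 lie on chromosome 9 of mm10. In the GENCODE annotation Bcl2a1d is at 88723285 to 88731914 on the minus strand, Bcl2a1a at 88956900 to 88962419, Bcl2a1b at 89199209 to 89207827 and Bcl2a1c at 114330135 to 114330578, all 3 on the plus strand. Bcl2a1a, Bcl2a1b and Bcl2a1d have 2 exons and 516 coding bases before the stop codon, whereas Bcl2a1c has 1 exon and 384. The start of the coding sequence is given 5′ to 3′, coding bases 1 to 75 from GENCODE transcripts, with capitals at the positions where the 4 copies are not all alike.
Bcl2a1a: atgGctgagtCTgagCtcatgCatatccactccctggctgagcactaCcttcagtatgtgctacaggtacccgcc
Bcl2a1b: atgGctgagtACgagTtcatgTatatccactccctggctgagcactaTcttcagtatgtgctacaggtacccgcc
Bcl2a1c: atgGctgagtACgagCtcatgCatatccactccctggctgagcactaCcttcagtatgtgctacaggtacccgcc
Bcl2a1d: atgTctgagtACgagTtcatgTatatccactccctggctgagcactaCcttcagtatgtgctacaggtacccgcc

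A second stretch, starting at coding base 281 and ending at base 340 of Bcl2a1c and base 339 of the others, holds the single base that is extra in Bcl2a1c. It is shown because it shifts the reading frame of that copy relative to the others.
Bcl2a1a: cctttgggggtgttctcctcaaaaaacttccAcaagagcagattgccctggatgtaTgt
Bcl2a1b: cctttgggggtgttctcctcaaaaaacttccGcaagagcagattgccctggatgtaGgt
Bcl2a1c: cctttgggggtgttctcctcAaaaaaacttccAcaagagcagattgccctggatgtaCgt
Bcl2a1d: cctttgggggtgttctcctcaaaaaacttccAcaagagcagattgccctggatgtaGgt

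Bcl2a1b and Bcl2a1d were 98.8% identical, with 6 substitutions in 519 aligned coding bases including the stop codon. Bcl2a1a was 98.7% identical to Bcl2a1d and 97.9% to Bcl2a1b. Bcl2a1c, aligned from its start codon to the end of its transcript and so past its own stop codon, had 16 to 21 substitutions against the others in 422 aligned bases. Of all 50-base windows of the transcript, 20.5% of those of Bcl2a1d, 31.0% of Bcl2a1a, 42.4% of Bcl2a1b and 89.6% of Bcl2a1c occurred in no other copy. Most short reads from Bcl2a1d thus fit another copy equally well, and reads from Bcl2a1c do so far less often. Bcl2a1b also overlaps Gm29094 on the same strand and Bcl2a1d overlaps the antisense gene Gm10634, so counts of single copies are uncertain. Counts of Bcl2a1b and Bcl2a1d were not whole numbers in any of the 4 libraries, as happens when reads are divided between genes. This was not particular to them, as counts of Birc3 were not whole in 4 libraries, of Birc2 in 3 and of Bcl2a1c in 2. The sum over the listed copies does not depend on how reads were divided among them, but it may hold reads of Bcl2a1a. Of the 768 50-base windows of Bcl2a1b 353 also occurred in transcripts of genes other than these copies. For Bcl2a1d this was so for 187 of 814 and for Bcl2a1c for 2 of 395. The sum may therefore also gain reads from such genes or lose reads to them.

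Transcripts of the Bcl2a1 copies were lower in the KO-named libraries, in sum and for each listed copy, but none of these differences passed edgeR's test across all genes. With DESeq2 and limma-voom Bcl2a1c alone passed. The summed level was 1010.3 CPM in WT-named library 1, 1586.7 in WT-named library 3, 369.0 in KO-named library 1 and 767.9 in KO-named library 3. The groups did not overlap, with KO-named library 3 closest to the WT-named range. The mean of 1298.5 CPM ± 407.6 in the WT-named libraries stood against 568.4 CPM ± 282.1 in the KO-named ones (SD, n = 2 each). This was −1.19 (SE 0.45) as a log2 fold change. It was −0.74 without WT-named library 3, −0.75 without KO-named library 1 and −1.83 without KO-named library 3. By edgeR's quasi-likelihood test the unadjusted p was 0.0234 and the Benjamini-Hochberg adjusted p over all genes 0.437, where 6.33% of all genes in that fit were lower at an unadjusted p under 0.05. DESeq2 gave the sum −1.18 (SE 1.28), with an unadjusted p of 0.358 and an adjusted p of 0.863. The values by limma-voom were −1.19 (SE 0.42), 0.0144 and 0.224. With RLE factors or library size alone as the scaling the groups still did not overlap.

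Bcl2a1d was the copy with the most reads, and its groups were separated by a narrow margin. Its level was 660.5 and 1010.3 CPM in WT-named libraries 1 and 3 and 292.9 and 649.7 CPM in KO-named libraries 1 and 3. The gap between WT-named library 1 and KO-named library 3 was smaller than the spread within either group. On the log2 scale the difference was −0.83 (SE 0.47, adjusted p = 0.650 by edgeR), and with RLE factors the groups overlapped. It was −0.39 without WT-named library 3 and −0.36 without KO-named library 1, and −1.53 without KO-named library 3.

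Bcl2a1b differed more. Its level was 330.4 and 548.9 CPM in WT-named libraries 1 and 3 and 76.0 and 118.2 CPM in KO-named libraries 1 and 3. Every WT-named value was well above every KO-named one, and the KO-named mean was 0.221 of the WT-named mean. A log2 fold change of −2.18 (SE 0.54) went with an unadjusted p of 0.00225 and 0.433 after adjustment by edgeR, and it lay between −2.55 and −1.68 with any single library left out. With DESeq2 on the same libraries it was −2.18 (SE 1.27), with an unadjusted p of 0.0854 and an adjusted p of 0.418. With limma-voom it was −2.12 (SE 0.66), with an unadjusted p of 0.00659 and an adjusted p of 0.139. In the authors' deposited table Bcl2a1b had a log2 fold change of −2.49 and a q-value of 0.0355.

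Bcl2a1c, the single-exon copy, was nearly absent from the KO-named libraries. It had estimated counts of 424.2 and 513.3 in WT-named libraries 1 and 3, 1 read in KO-named library 1 and none in KO-named library 3. These are levels of 19.5 and 27.5 CPM against 0.0747 and 0 CPM. The pooled level was 706-fold lower in the KO-named libraries, with a 95% exact interval of 126 to 27910.3 that covers counting error only. Its edgeR adjusted p was 0.433, whereas it was 0.00015 with DESeq2 and 0.0129 with limma-voom. In the authors' deposited table the log2 fold change was −9.19 and the q-value 1.48e-08. Bcl2a1c entered the test only through its WT-named libraries.

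**Figure D1:**
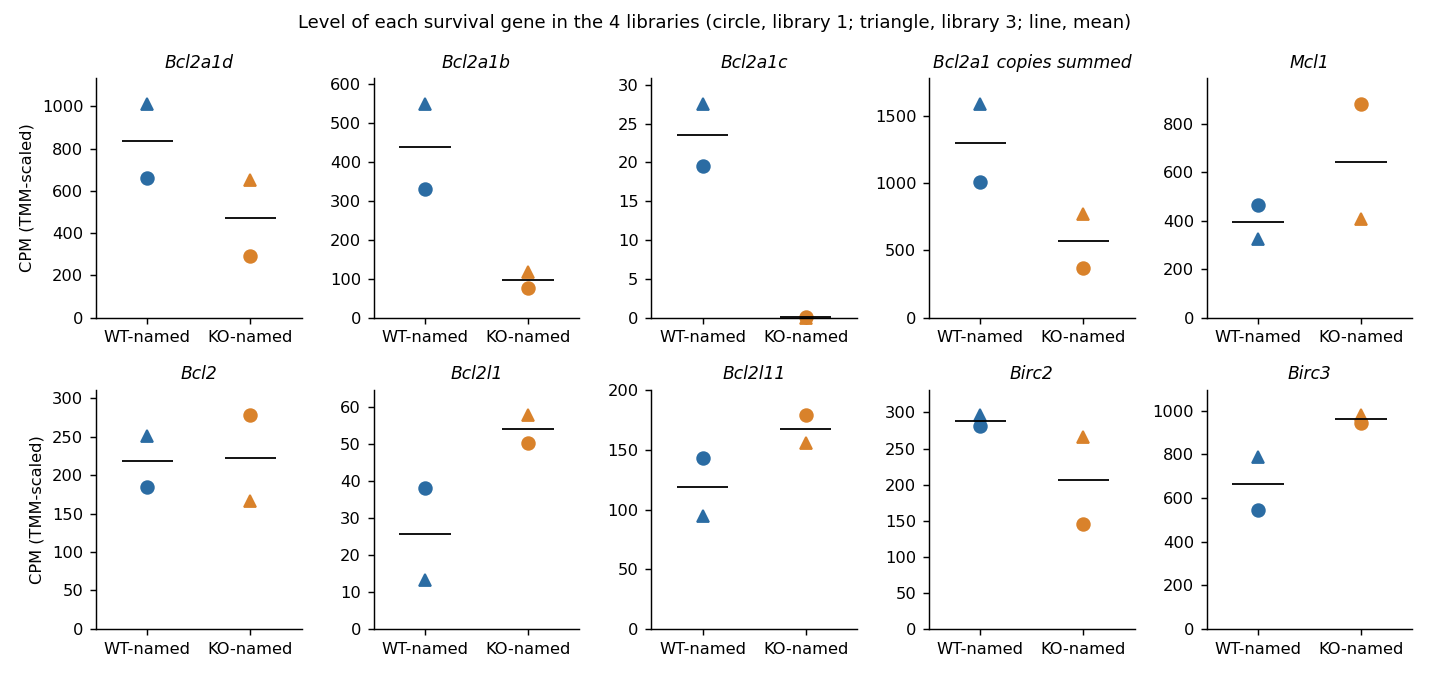
Level of each listed survival gene, in TMM-scaled CPM, by library group. Circles are libraries 1, triangles libraries 3 and lines group means (n = 2 libraries each), and each panel has its own axis from 0. The copies of Bcl2a1 lie lower in the KO-named libraries, with Bcl2a1c at 0.0747 and 0 CPM there, whereas the values of Bcl2 and Mcl1 overlap between the groups.

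The split of reads among the Bcl2a1 copies also differed between the groups, and this measure does not depend on library scaling. Bcl2a1b held 32.7% (95% Wilson interval 32.1 to 33.3) and 34.6% (34.1 to 35.1) of the copies' reads in WT-named libraries 1 and 3. In KO-named libraries 1 and 3 it held 20.6% (19.5 to 21.7) and 15.4% (14.8 to 16.0). Both KO-named shares were below both WT-named ones, by a wider margin than either pair of libraries differed internally. The mean was 33.6% ± 1.34 against 18.0% ± 3.68 (SD, n = 2 each). The exact two-sided permutation p was 0.333, which is the smallest that 2 libraries against 2 allow.

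Bcl2a1d accordingly took 65.4% and 63.7% of the reads in the WT-named libraries against 79.4% and 84.6% in the KO-named libraries. There were 2.00 and 1.84 reads of Bcl2a1d per read of Bcl2a1b in the WT-named libraries, and 3.86 and 5.50 in the KO-named ones. Bcl2a1c took 1.93% and 1.73% in the WT-named libraries and 0.0202% in KO-named library 1. In KO-named library 3 it had 0 of 13089 reads, which allows a share of up to 0.0229%. Intervals and limits cover counting error only and not the division of shared reads.

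**Figure D2:**
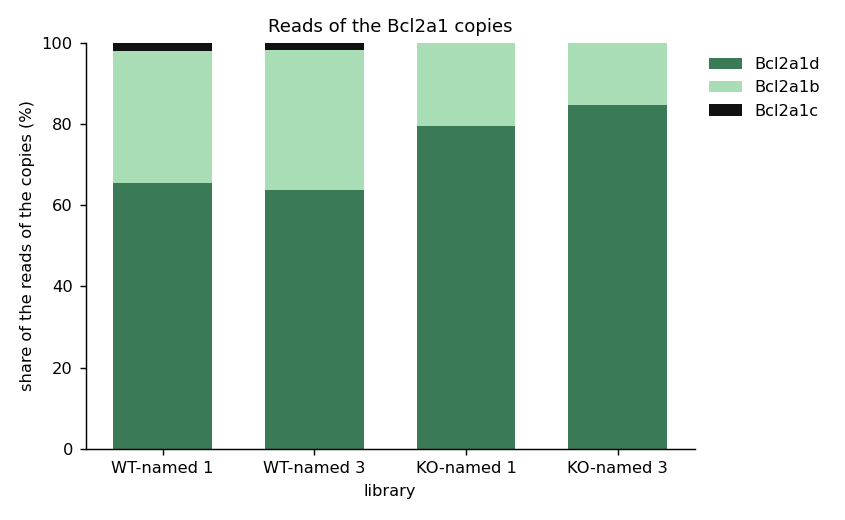
Share of the reads of the listed Bcl2a1 copies, in percent, that was assigned to each copy in each library. Bcl2a1b took 32.7% and 34.6% in the WT-named libraries and 20.6% and 15.4% in the KO-named ones, and Bcl2a1c is too small to see in the latter.

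Among the other pro-survival genes Bcl2, the founding member of the family, did not separate the groups. It was at 184.5 and 251.6 CPM in WT-named libraries 1 and 3 and at 277.9 and 166.7 CPM in KO-named libraries 1 and 3, so that the KO-named libraries held both the highest and the lowest value. Its log2 fold change was 0.03 (SE 0.54, adjusted p = 0.993 by edgeR), and −0.29 with library size alone as the scaling.

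Mcl1, whose short-lived protein is needed by most lymphocytes, was high in a single library. It was at 462.9 and 325.2 CPM in WT-named libraries 1 and 3 and at 880.4 and 404.4 CPM in KO-named libraries 1 and 3. The library with 880.4 CPM was also the one with the stromal transcripts, and the other KO-named value lay within the WT-named range. The log2 fold change of 0.71 (SE 0.48, adjusted p = 0.733 by edgeR) was 0.05 without KO-named library 1 and 1.15 without KO-named library 3.

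Bcl2l1, which encodes BCL-XL, was scarcer than Bcl2 and Mcl1 in every library. It was at 38.2 and 13.4 CPM in WT-named libraries 1 and 3 and at 50.3 and 57.8 CPM in KO-named libraries 1 and 3. The KO-named values were the higher ones and close together, whereas the WT-named values were 2.86-fold apart. As a log2 fold change this was 1.07 (SE 1.30, adjusted p = 0.902 by edgeR), 2.00 without WT-named library 1 and 0.58 without WT-named library 3, and with library size alone the groups overlapped.

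Bcl2l11, which encodes the BH3-only protein BIM, was slightly higher in the KO-named libraries. It was at 143.4 and 94.3 CPM in WT-named libraries 1 and 3 and at 178.8 and 155.3 CPM in KO-named libraries 1 and 3. The groups did not overlap on this scale but did so with library size alone. On the log2 scale it differed by 0.49 (SE 0.64, adjusted p = 0.907 by edgeR), less than its SE, and it was 0.80 without WT-named library 1 and 0.29 without WT-named library 3.

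The IAP genes lie next to each other on chromosome 9, Birc2 at 7818226 to 7837131 and Birc3 at 7847468 to 7873205 (mm10), and they differed in opposite directions. Birc3 was at 544.4 and 786.1 CPM in WT-named libraries 1 and 3 and at 941.8 and 978.0 CPM in KO-named libraries 1 and 3. Its KO-named values were close together and above both WT-named ones under all 3 scalings. Birc3 thus had a log2 fold change of 0.53 (SE 0.38, adjusted p = 0.755 by edgeR), 0.27 without WT-named library 1, 0.89 without WT-named library 3 and 0.22 with library size alone.

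Birc2 was at 281.5 and 295.9 CPM in WT-named libraries 1 and 3 and at 145.3 and 266.6 CPM in KO-named libraries 1 and 3. KO-named library 1 was low and KO-named library 3 close to the WT-named values. The log2 fold change of −0.49 (SE 0.52, adjusted p = 0.878 by edgeR) was −0.11 without KO-named library 1 and −1.003 without KO-named library 3, and with RLE factors the groups overlapped. The opposite signs of Birc2 and Birc3 were not tested against each other.

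**Figure D3:**
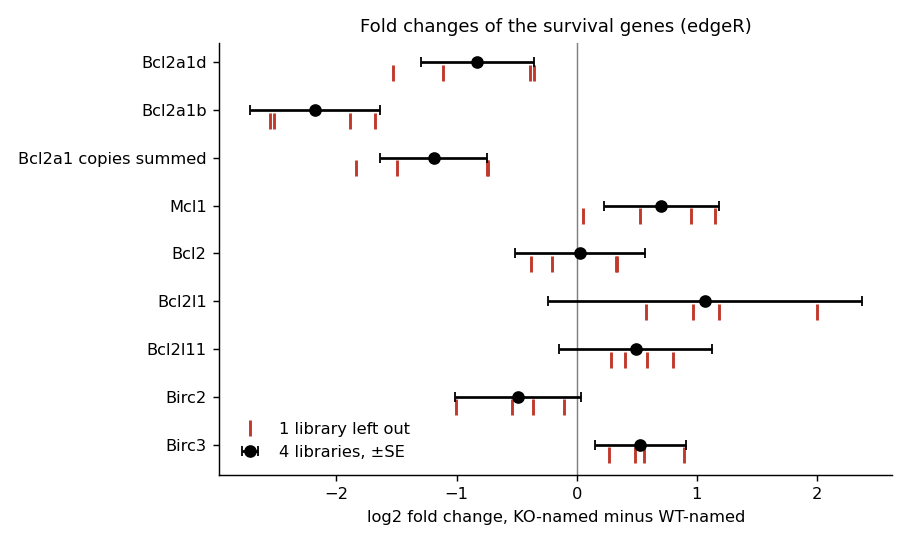
Log2 fold change of each tested survival gene and of the summed Bcl2a1 copies, KO-named minus WT-named, from edgeR. Black points are the fit to 4 libraries with its SE, red marks the fits with 1 library left out. Bcl2a1c, with 1 read in the KO-named libraries, is not drawn. The Bcl2a1 copies and Birc2 stay below 0 and Mcl1, Bcl2l1, Bcl2l11 and Birc3 above 0 in these fits, whereas Bcl2 lies on both sides.

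All 9 listed genes passed the filter on low counts, and by edgeR's test 0 of them had an adjusted p under 0.05, as did 0 of all 8753 genes tested (0%). At an unadjusted p under 0.05 there were 2, Bcl2a1b and Bcl2a1c, both lower, where 6.34% of all tested genes were lower at that level and 9.81% differed in either direction. DESeq2 called 1 of them, Bcl2a1c, which was lower, against 9.85% of all genes it tested in either direction and 7.26% in that one. By limma-voom Bcl2a1c was again the only member called, against 2.3% of all genes and 1.78% in the lower direction. In 4 of the 9 both KO-named libraries were below both WT-named ones, where 22.1% of all tested genes were, and 3 lay above, where 17.8% did, all with TMM scaling. With RLE factors 2 were below and 3 above, and with library size alone 4 were below and 1 above. These counts share the Bcl2a1 copies, whose reads are not independent. Bcl2a1c entered the test only through its WT-named libraries and could then only come out lower, so its calls are no support for a direction. Bcl2a1b and Bcl2a1c, 2 of the 9, had a q-value under 0.05 in the authors' deposited table, both lower, against 4.17% of its genes and 3.03% in that direction, and the q-values of the other members were between 0.906 and 0.995. That table gives Bcl2l1 a log2 fold change of −0.09. With TMM scaling both of its KO-named libraries were above both WT-named ones, but with library size alone they overlapped. Its edgeR value was 1.07 (SE 1.30).

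Levels of different genes were compared per kilobase of their longest annotated transcript. On this scale Bcl2a1d was the highest of the 9, with 968.0 CPM per kilobase ± 286.6 in the WT-named libraries against 546.2 ± 292.3 in the KO-named group (SD over 2 libraries each), and it ranked 94 of 10619 genes. Bcl2a1b followed at 538.1 ± 189.1 and 118.8 ± 36.5, and Birc3 at 228.7 ± 58.8 and 330.0 ± 8.80 CPM per kilobase. In the KO-named libraries Birc3 was thus above Bcl2a1b, and in the WT-named ones below it. Mcl1 had 115.3 ± 28.5 and 187.9 ± 98.5, and Birc2 86.7 ± 3.07 and 61.8 ± 25.8 CPM per kilobase. In the KO-named libraries Bcl2a1b and Mcl1 did not differ beyond their spread, whereas Birc3 was above both in each library. Bcl2a1c had 52.9 ± 12.8 CPM per kilobase in the WT-named libraries. Bcl2, Bcl2l11 and Bcl2l1 were lower, at 30.3 ± 6.60, 23.6 ± 6.90 and 10.04 ± 6.84 CPM per kilobase in the WT-named libraries and at 30.9 ± 10.9, 33.2 ± 3.30 and 21.1 ± 2.05 in the KO-named ones. Bcl2 and Bcl2l11 did not differ beyond their spread in either group.

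Bcl2a1 copies made up 86.4% and 93.0% of the summed CPM per kilobase of Bcl2a1, Mcl1, Bcl2, Bcl2l1 and Bcl2l2 in WT-named libraries 1 and 3. In KO-named libraries 1 and 3 they made up 57.7% and 82.7%. The KO-named shares were the lower ones, but KO-named library 3 was nearer to WT-named library 1 than to KO-named library 1. Mcl1 was the second component, at 9.65% and 4.64% in the WT-named libraries against 34.4% and 10.9% in the KO-named libraries. Bcl2 made up 1.71% to 5.15% and Bcl2l1 0.254% to 2.61% of the sum. Set against Bcl2l11, the pro-survival sum was 49.3 and 109.4 times as high per kilobase in the WT-named libraries and 21.1 and 35.2 times in the KO-named ones. These values are of transcripts and depend on the lengths used. They count Bcl2a1c with the other copies, although its reading frame is shorter. With the median transcript length the Bcl2a1 copies held 45.8% and Mcl1 43.6% in KO-named library 1, and the Bcl2a1 copies held 69.1% to 87.9% in the other libraries.

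**Figure D4:**
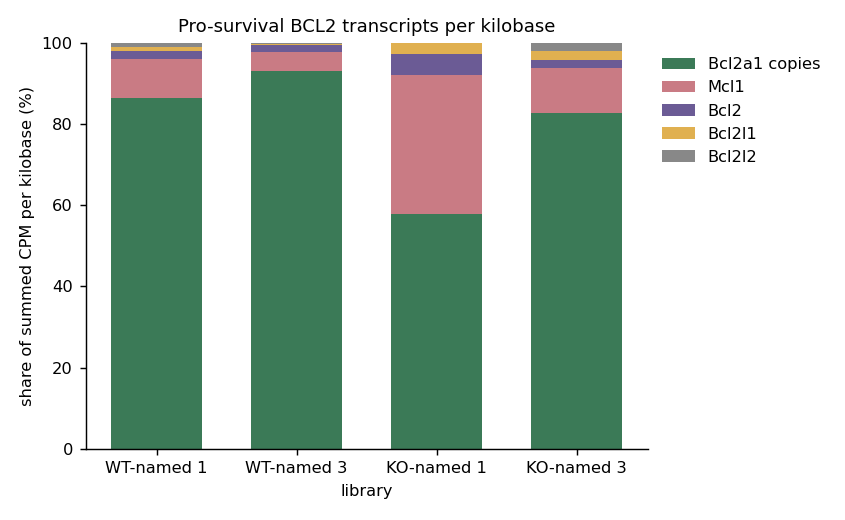
Composition of the pro-survival BCL2 transcripts in each library, in percent of their summed CPM per kilobase of longest transcript. Bcl2a1 copies hold 86.4% and 93.0% in the WT-named libraries against 57.7% and 82.7% in the KO-named libraries, and Mcl1 holds 34.4% in KO-named library 1.

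Of the other genes of the survival pathway, 53 of 73 symbols on 9 lists were listed and tested. Sept4 and Septin4, both among the 73 and not listed, are symbols of the same gene. In either direction 0 passed edgeR (adjusted p between 0.433 and 0.994). Of these 53, 23 had a log2 fold change above 0 and 30 below 0, with a median of −0.16 against 0.05 over all tested genes. At an unadjusted p under 0.05 there were 4, against 9.81% of all tested genes. These were Tpt1, Cflar, Bid and Naip2. DESeq2 called 2 of the 53, Bid and Naip2, against 9.85% of all genes it tested. By limma-voom there were 2, Naip2 and Tpt1, against 2.3% of all genes. Like Bcl2a1c, Bid and Naip2 entered the test only through their WT-named libraries.

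The proteins that act directly on mitochondria were unevenly covered. Bax, a pore former, was the only effector listed, at 73.5 and 19.8 CPM in WT-named libraries 1 and 3, with no read in KO-named library 1 and 33.4 CPM in KO-named library 3. Bak1 was not listed. Bcl2l2, which encodes BCL-W, was at 54.7 and 32.4 CPM in the WT-named libraries against 5.15 and 88.3 CPM in the KO-named libraries, a span within the KO-named group wider than any difference between groups. Of 4 tested BH3-only genes 2 were above and 2 below 0, with a median log2 fold change of 0.14. Bnip3l, an atypical BH3 protein of mitophagy, was at 140.3 and 225.1 CPM in the WT-named libraries against 671.2 and 136.9 CPM in the KO-named libraries. Its log2 fold change of 1.15 (SE 0.69) was −0.41 without KO-named library 1. Bnip3, its relative, was at 14.0 and 2.90 CPM in WT-named libraries 1 and 3 and at 0.224 and 34.6 CPM in KO-named libraries 1 and 3. Its log2 value of 1.04 (SE 2.28) turned with the setting, being −1.22 with limma-voom, −1.05 with the replicate block and −5.19 without KO-named library 3. Bid, which links death receptors to mitochondria and was named for its call by DESeq2, was scarce, at 3.54 and 0.644 CPM in the WT-named libraries, with 0.0747 and 0 CPM in the KO-named ones.

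Other IAP genes were 6 among those tested, with a median log2 difference of −0.39, 3 above and 3 below 0. Birc6, a giant IAP that also carries a ubiquitin-conjugating domain, was the most highly expressed, with 0.60 (SE 0.49), and −0.07 without KO-named library 1. Xiap, the IAP that binds caspases directly, had 0.20 (SE 0.68) and −0.53 without KO-named library 1, with 94.8 and 294.3 CPM in the WT-named libraries against 313.5 and 134.8 CPM in the KO-named libraries. The 3 below 0 were the NAIP copies, inflammasome sensors of bacterial proteins that belong to the IAP family. How much sequence they share was not examined. Naip2 was at 70.6 and 48.5 CPM in the WT-named libraries against 0.747 and 0.469 CPM in the KO-named libraries, with an edgeR adjusted p of 0.433. Naip5 was at 123.3 and 182.4 CPM against 80.2 and 74.4 CPM. Naip6 was at 60.4 and 78.8 CPM against 0.672 and 60.3 CPM, the last of which nearly reached the WT-named values. Diablo, an IAP antagonist, had −1.45 (SE 1.99), which was −0.40 without WT-named library 1, −0.49 without KO-named library 1 and −5.04 without KO-named library 3. Htra2, another, had 0.52 (SE 1.49), which was 2.06 without WT-named library 1 and −0.14 without WT-named library 3.

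Downstream of mitochondria, 6 of 7 tested apoptosome and caspase genes were below 0, with a median log2 fold change of −0.19. Cycs, cytochrome c, was at 642.3 and 665.1 CPM in the WT-named libraries against 316.5 and 482.3 CPM in the KO-named libraries, with −0.71 (SE 0.42, adjusted p = 0.666 by edgeR). Casp8, the initiator caspase of death receptors, had −0.57 (SE 0.63), and 0.05 without KO-named library 3. Its values of 249.1 and 480.6 CPM in the WT-named libraries against 384.0 and 107.8 CPM in the KO-named libraries overlapped.

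Of 12 tested death receptor and signalling genes 6 were above and 6 below 0, with a median of 0.04. Cflar, which encodes the caspase-8 inhibitor c-FLIP, was at 250.5 and 331.7 CPM in WT-named libraries 1 and 3 and at 657.0 and 654.5 CPM in KO-named libraries 1 and 3. The KO-named values were alike and above both WT-named ones. This gave 1.17 (SE 0.42) on the log2 scale, unadjusted p = 0.0175 and 0.433 after adjustment by edgeR, and it lay between 0.96 and 1.46 with any single library left out and at 0.86 with library size alone. Cyld, a deubiquitinase of these complexes, had 0.35 (SE 0.57), which was −0.11 without WT-named library 1, −0.13 without KO-named library 1 and 1.01 without WT-named library 3.

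Of 6 tested regulators of MCL1 and BCL2 protein 5 were below 0, with a median of −0.44. Tpt1, a translationally controlled protein that has been reported to stabilise MCL1, was the exception. It was at 6449.5 and 8525.6 CPM in the WT-named libraries against 18796.4 and 18802.8 CPM in the KO-named libraries, with a log2 fold change of 1.33 (SE 0.28, unadjusted p = 0.000793, edgeR adjusted p = 0.433). It passed limma-voom. Usp9x, a deubiquitinase of MCL1, had −0.65 (SE 0.56), and 0.085 without WT-named library 3.

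Upstream inputs to these genes were all tested, 14 in number, with a median log2 difference of 0.31, 8 above and 6 below 0. Il7r, the interleukin-7 receptor chain, was at 1661.4 and 2241.1 CPM in the WT-named libraries against 1316.7 and 1747.4 CPM in the KO-named libraries, with −0.35 (SE 0.34). Nfkb1, an NF-kappaB subunit whose pathway drives Bcl2a1 and Birc3 in other lymphocytes, had 0.51 (SE 0.40), and −0.13 without KO-named library 1. The groups overlapped for both. Of the 14, 3 were lower in both KO-named libraries without overlap, Il2ra, Il2rg and Rel, where 22.1% of all tested genes were. Stat5b alone was higher without overlap, where 17.8% were. Rel was at 802.9 and 661.9 CPM in the WT-named libraries against 554.3 and 478.8 CPM in the KO-named libraries. Il2rg was at 653.4 and 543.7 against 126.4 and 444.4 CPM, and Stat5b at 47.9 and 51.9 against 185.4 and 53.6 CPM.

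**Figure D5:**
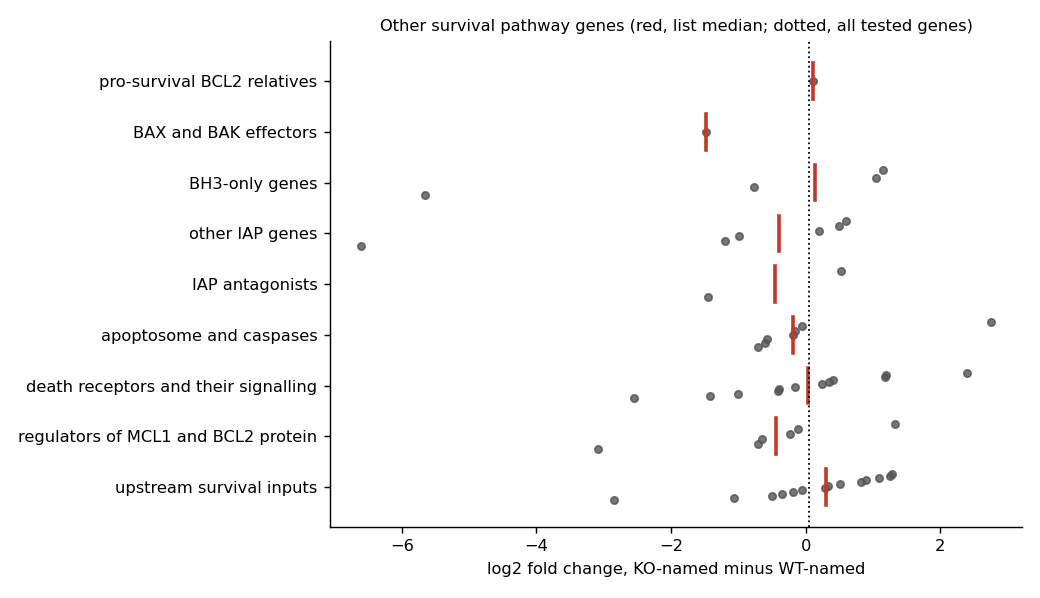
Log2 fold change, KO-named minus WT-named, of 53 other genes of the survival pathway by list, from edgeR. Points are genes, red lines list medians and the dotted line the median of 0.05 over all tested genes. The 2 points farthest to the left, Naip2 and Bid, are genes with few or no reads in the KO-named libraries, whose fitted size depends on the prior count.

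The genes whose pattern over the 4 libraries was most like that of the summed Bcl2a1 copies were Bcl11b, Fnbp4 and Brcc3. Likeness was the root mean square difference of centred log2(CPM + 0.5), over 4 libraries and 3000 genes with a mean of at least 50 CPM, and it was 0.04, 0.10 and 0.12. Bcl11b was at 105.1 and 166.2 CPM in the WT-named libraries against 35.6 and 76.8 CPM in the KO-named libraries. Over 4 libraries many genes come close to any pattern, and this is a description only.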

How the data were processed

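The deposited table holds estimated counts, per the file headers, with mm10 as the genome build per the submitters' processing notes, and 20.0% to 21.6% of values per library are not whole. Aligner, counter, strandedness and annotation: not given in the sources used here. Per the labels, RNA of the sorted cells was extracted with Trizol. The authors also deposited the log2 fold change, p-value and q-value of their own DESeq2 comparison, per the file headers, without naming the libraries in it. A further 12 columns of per-sample values were not used.

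Counts were rounded and tested with edgeR 4.0.16 (R 4.3.3), quasi-likelihood, with TMM scaling and filterByExpr (8753 genes), Benjamini-Hochberg adjusted over all of them at 0.05. The SE is the size of the log2 fold change divided by the root of F. DESeq2 1.42.0 and limma 3.58.1 (voom) were alternatives, as were other scalings, no filter, a replicate block and leaving out each library. The procedure was run on simulated counts with known changes as a check of the code. Their spread between libraries was set in advance and not taken from these data. That check therefore does not give the power or error rate here. The copies of Bcl2a1 were tested singly and as 1 summed row. Transcripts, lengths and gene positions of the copies come from GENCODE M21 (GRCm38) and other positions from RefSeq GRCm38.p6. Protein sequences were not used here.

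Columns numbered 1 match a library name, and those numbered 3 match a group only. Within a group the counts of the libraries differed by more than sampling noise (chi-square per degree of freedom 241.7 and 361.2). No label says that they are separate animals, and p-values then reflect the spread between these libraries alone, which may be technical. The members and lists were chosen with earlier results of these data known. All members are named, and in each list the passing genes or, where none passes, the 2 highest expressed. Bak1, Bid, Naip2, Naip5, Naip6, Il2ra, Il2rg, Rel, Stat5b and the ILC2 marker Areg were named after their values were seen.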

Additional observations from a re-analysis of the deposited data

How the results depend on the processing

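No alternative made edgeR call any of the 9 survival genes, and DESeq2 and limma-voom each called 1, Bcl2a1c. Over all genes DESeq2 called 952 (9.85%), limma-voom 201 (2.3%) and edgeR with the replicate number as a block 25, against 0. Of the 53 other pathway genes DESeq2 and limma-voom called 2 each and the replicate block 1, Tpt1. The numbers of the libraries are not known to pair them (correlation of same-numbered deviations −0.007 across genes), and the block changed no call of a survival gene. Of 90 alternative fold changes of the 9 genes 81 kept their direction and side of the threshold, 2 passed it (Bcl2a1c) and 7 reversed, all of Bcl2. These were −0.003 with DESeq2, −0.023 with limma-voom, −0.293 with library size alone, −0.081 with no filter, −0.001 with the replicate block, −0.205 without WT-named library 1 and −0.38 without KO-named library 1 (0.334 without KO-named library 3), and the cause was not tested. The log2 fold change of the summed Bcl2a1 copies lay between −1.83 and −0.74. Median log2 fold changes of all tested genes were 0.05 under TMM, 0.13 under RLE and −0.28 under library size. With the median transcript length the Bcl2a1 copies held 82.4% of the pro-survival sum in the WT-named libraries against 57.5% in the KO-named ones. In windows of 100 bases 56.5%, 68.9%, 100% and 45.3% of those of Bcl2a1a, Bcl2a1b, Bcl2a1c and Bcl2a1d occurred in no other copy.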

Other observations

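Signs in the authors' deposited table often differed from those of the fit to the 4 libraries. Among 3999 tested genes with at least 100 reads in every library, 708 (17.7%) had the opposite sign in that table and in the edgeR fit. Among the survival genes this was so for Bcl2l1, at −0.09 in the authors' deposited table and 1.07 (SE 1.30) in the fit.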
